A study of Mus musculus with 8 samples.

Results

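The genes described here are 36 carriers of amino acids and peptides, chosen by name from the solute carrier families, out of 19505 genes with a symbol on the array. Each of the 36 matched 1 probe set of the platform annotation, so no choice between probe sets was needed. The values are log2 ileal signals of KKAy males, which bear the Ay allele of agouti and serve as a model of obesity with diabetes. All were 30 g, aged 14 weeks, and on high-fat chow (45% of the energy as fat). Following a 4-week lead-in on this chow, 4 mice received voglibose at 1 mg/kg and 4 an equal volume of water by gavage each day for 8 weeks, and each mouse has 1 array. Voglibose inhibits the alpha-glucosidases of the brush border, and every mouse, water mice included, carried the same strain background and ate the same diet. The labels do not say whether the age is that at the start or at the end. RNA came from about 4 cm of whole ileum, so epithelium, muscle, immune cells and nerves are measured together, and fewer cells of a type cannot be told apart from less RNA per cell.

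Dietary protein is absorbed by enterocytes as free amino acids and as short peptides. Apical carriers of the brush border take up peptides with protons (PEPT1) or amino acids with sodium, with protons or by exchange, and basolateral carriers release amino acids to the blood, several as heterodimers of a light chain and the heavy chain 4F2hc. Other members of these families sit in lysosomes, where they export or sense amino acids, or serve growing cells, nerve and glia. The carriers were divided by this textbook location into 10 apical, 8 basolateral, 4 of lysosomes and inner membranes and 14 others, to compare voglibose with water mice in each class.

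The 250 bases before the start of 5 carriers are shown because the results below turn on these genes: Slc15a1 and Slc38a7 had the smallest p among the carriers, Slc36a1 the largest difference, and Slc16a10 and Slc1a1 wide and opposite swings between mice. The sequences are those of RefSeq on GRCm38.p6, written 5′ to 3′ on the strand of the gene. Capitals mark matches to any of 5 motifs searched on both strands.
Slc15a1 (chr14:121505255-121505504, minus strand): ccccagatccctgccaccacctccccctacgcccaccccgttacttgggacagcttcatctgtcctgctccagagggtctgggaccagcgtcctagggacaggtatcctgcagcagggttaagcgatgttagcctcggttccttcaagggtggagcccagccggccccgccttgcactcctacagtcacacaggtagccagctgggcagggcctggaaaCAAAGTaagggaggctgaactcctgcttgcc
Slc38a7 (chr8:95853492-95853741, minus strand): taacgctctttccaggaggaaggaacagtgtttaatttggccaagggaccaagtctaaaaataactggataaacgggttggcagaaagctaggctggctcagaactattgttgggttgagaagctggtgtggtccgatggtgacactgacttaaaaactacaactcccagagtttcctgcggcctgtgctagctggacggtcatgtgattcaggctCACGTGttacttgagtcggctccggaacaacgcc
Slc36a1 (chr11:55204090-55204339, plus strand): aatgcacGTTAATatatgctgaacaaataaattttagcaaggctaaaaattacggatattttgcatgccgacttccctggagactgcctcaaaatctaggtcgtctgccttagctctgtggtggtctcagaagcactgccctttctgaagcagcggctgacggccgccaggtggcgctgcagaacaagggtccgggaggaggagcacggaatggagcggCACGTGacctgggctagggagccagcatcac
Slc16a10 (chr10:40142255-40142504, minus strand): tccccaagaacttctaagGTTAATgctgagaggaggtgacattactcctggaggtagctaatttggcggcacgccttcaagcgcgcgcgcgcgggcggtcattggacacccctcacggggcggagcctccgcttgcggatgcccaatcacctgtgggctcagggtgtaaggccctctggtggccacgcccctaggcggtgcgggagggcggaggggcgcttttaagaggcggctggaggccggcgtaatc
Slc1a1 (chr19:28834885-28835134, plus strand): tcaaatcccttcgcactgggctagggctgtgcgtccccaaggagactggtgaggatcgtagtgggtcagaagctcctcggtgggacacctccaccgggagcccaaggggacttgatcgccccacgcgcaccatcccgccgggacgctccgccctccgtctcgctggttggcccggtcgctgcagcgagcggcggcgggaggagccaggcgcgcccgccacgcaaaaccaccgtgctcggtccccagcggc
The motifs were AGATAA (read by factors such as Gata4), CAAAGT (part of the HNF4 site), GTTAAT (part of the HNF1 site), TGATGNAA (ATF4) and CACGTG (the E-box, read by TFEB and MITF among others, and added after the windows had been read). Slc15a1 held CAAAGT from 31 to 26 bases before the start, Slc38a7 and Slc36a1 each held CACGTG, and Slc36a1 and Slc16a10 each held GTTAAT far upstream. No match was found in the Slc1a1 window. Among 32851 windows of the same length in the whole table, 9.99% held AGATAA, 12.6% CAAAGT, 6.43% GTTAAT, 3.45% TGATGNAA and 6.02% CACGTG. Of the 36 carriers, 28 had a window, some more than 1, with 41 windows in all. Of these 41 windows, 4, 3, 5, 2 and 4 held the motifs in the same order. Counted by carrier, with a match in any window, they were found in 3, 3, 5, 1 and 4 of the 28. The shares above are of windows and compare with the counts out of 41 only. A match describes letters only.

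All 8 arrays had medians between 5.89 and 5.94 over 22206 probe sets. The mice differed in markers of position along the intestine. The mean of 6 distal ileal markers ran from 8.59 to 11.75 in voglibose mice and from 8.70 to 14.74 in water mice, highest in water mouse 2 and lowest in voglibose mouse 2 and water mouse 4. The mean of 8 proximal markers ran from 10.96 to 12.18 in voglibose mice and from 9.99 to 12.18 in water mice, and was lowest in water mouse 2. Fabp6, the ileal bile acid binding protein and a defining marker of this segment, had 8.14, 3.54, 10.78 and 11.68 in voglibose mice 1 to 4, against 8.51, 17.50, 14.11 and 4.01 in water mice 1 to 4. In voglibose mouse 2 and water mouse 4 it was under the lower quartile of probe sets at 4.13, so the samples of these mice lacked this marker of the labelled tissue. Enterocyte markers were bright in all mice, with list means over 12 genes from 17.22 to 17.54 in voglibose mice and from 16.93 to 17.45 in water mice. The mean of 6 smooth muscle markers was from 12.34 to 13.43 in voglibose mice and from 11.11 to 14.36 in water mice, highest in water mouse 2. Voglibose mouse 2 carried pancreatic transcripts, with a mean of 9.78 over 5 markers, where the other voglibose mice had 4.58 to 4.76 and the water mice 4.43 to 4.68. Of the 36 carriers, 27 had a mean signal above the median probe set, while 9 lay below it and have differences that are compressed by background.

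None of the 36 carriers passed the test over all probe sets (limma, Benjamini-Hochberg), and their adjusted p ran from 0.652 to 1. The same held for the whole array, where 0% of the probe sets had an adjusted p under 0.05 and the smallest was 0.652. At an unadjusted p under 0.05 stood 2 of the 36 carriers, Slc15a1 (higher in voglibose mice) and Slc38a7 (lower), beside 7.52% of all probe sets, of which 3.08% were higher and 4.44% lower. The voglibose and water mice did not overlap in 1 carrier, Slc38a7, against 4.35% of all probe sets. The counts among the 36 carriers lay no higher than these shares. In sign, 21 carriers were higher in voglibose mice, 14 were lower and Slc15a4 had a difference of 0, where 48.7% of all probe sets were higher. The median difference (voglibose minus water, log2) was 0.10 over the 36 carriers and -0.005 over all probe sets. Among the probe sets above the median signal, where 27 of the carriers lie, 42.6% were higher and the median was -0.04. The precision is limited by 4 arrays per group: the SE of a carrier's difference had a median of 0.19 and ran from 0.13 to 0.58, and the 95% interval held 0 in 34 of 36 carriers.

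**Figure D1:**
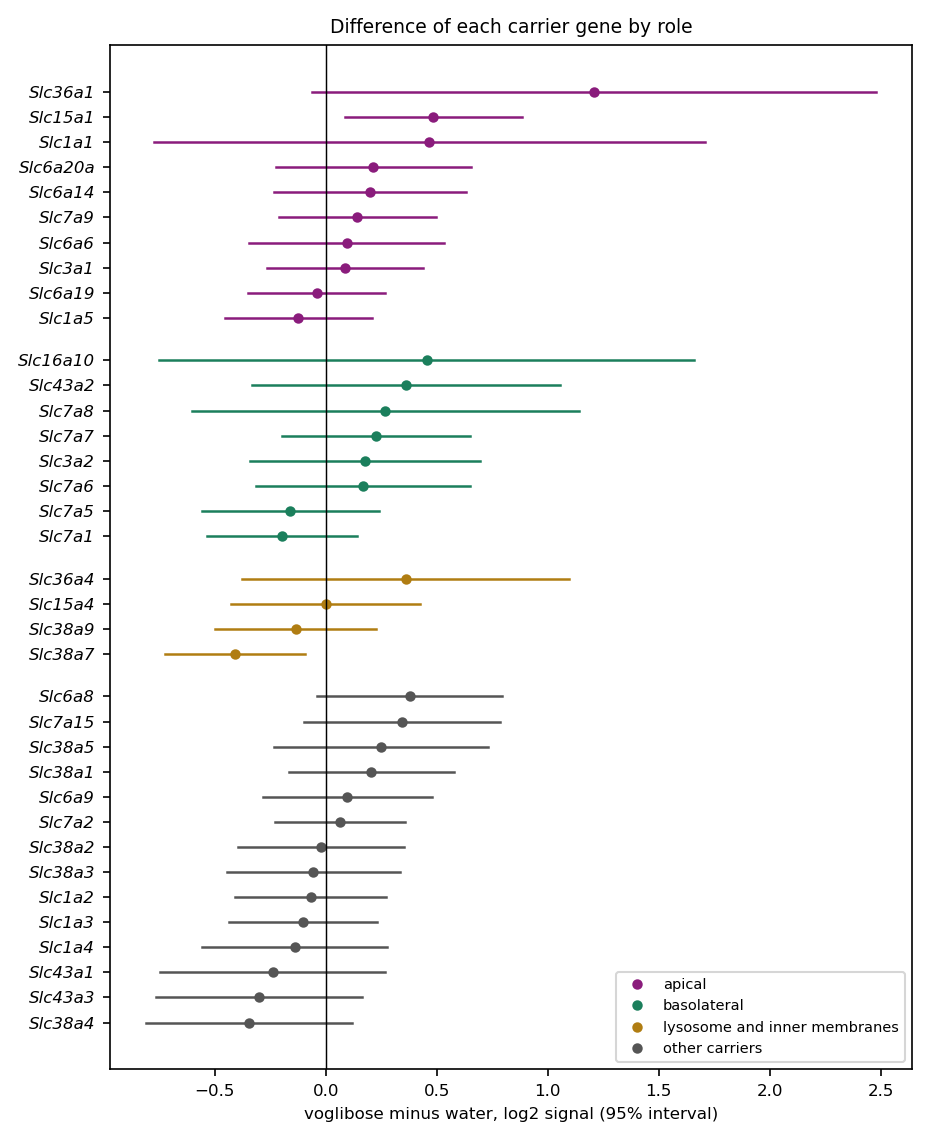
Difference of each of the 36 carriers, voglibose minus water in log2 signal on the x axis, with points for the estimate and lines for its 95% interval (limma, 4 mice per group), coloured by role. The intervals of Slc15a1 (above 0) and Slc38a7 (below 0) leave out 0, and those of the other 34 hold it.

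Apical carriers were higher in voglibose mice in 8 of 10, with a median difference of 0.17, and none passed over all probe sets. Slc15a1, which encodes PEPT1, the proton-coupled carrier of di- and tripeptides and of peptide-like drugs, had 17.40, 17.29, 17.16 and 17.50 in voglibose mice 1 to 4, against 17.18, 16.39, 16.85 and 16.99 in water mice 1 to 4. Only voglibose mouse 3 lay below the highest water mouse, and water mouse 2 was the lowest of all. The group means were 17.34 ± 0.15 in voglibose mice and 16.85 ± 0.34 in water mice (SD, n = 4 each), which differed by 0.485 (95% interval 0.09 to 0.88; 1.40-fold; limma adjusted p = 0.658). Without water mouse 2 the difference was 0.33, and without water mouse 4 and voglibose mouse 2 it was 0.55.

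Slc36a1, a proton-coupled carrier of glycine, proline and alanine that is found at the apical surface and in lysosomes, had the largest difference of the carriers. Its signals were 12.48, 12.67, 11.29 and 12.48 in voglibose mice 1 to 4, against 11.91, 8.96, 11.86 and 11.36 in water mice 1 to 4. The low values were those of water mouse 2 and, to a smaller extent, voglibose mouse 3, and the groups overlapped. The difference was 1.21 ± 0.58 (SE; 95% interval -0.06 to 2.48; limma adjusted p = 0.667), and without water mouse 2 it was 0.52. Water mouse 2 also had the highest mean of the distal ileal markers, and the part of position along the gut in this difference was not tested.

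The sodium-coupled carriers of neutral amino acids differed in spread, with a pooled SD within groups of 0.14 for Slc6a19 and 0.31 for Slc6a20a. Slc6a19, the main brush border carrier of neutral amino acids (B0AT1, the Hartnup gene in humans), had 16.09, 16.16, 15.94 and 16.10 in voglibose mice 1 to 4, against 16.16, 15.87, 16.27 and 16.15 in water mice 1 to 4. Its difference of -0.04 had a 95% interval from -0.35 to 0.27, and it was 0.02 after a further quantile normalization. Slc6a20a, the proline carrier SIT1, had 14.66, 14.98, 14.45 and 14.79 in voglibose mice, against 14.16, 14.82, 14.83 and 14.21 in water mice, which overlapped. Its difference was 0.22 ± 0.20 (SE), and 0.03 without water mouse 4 and voglibose mouse 2.

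Cystine and the cationic amino acids enter through b0,+, an exchanger made of the light chain Slc7a9 and the heavy chain Slc3a1, both genes of human cystinuria. Slc7a9 had 11.33, 11.21, 11.75 and 11.73 in voglibose mice 1 to 4, against 11.39, 11.42, 11.41 and 11.23 in water mice 1 to 4. Slc3a1 had 14.31, 14.03, 14.30 and 14.44 in voglibose mice, against 14.43, 14.11, 14.29 and 13.90 in water mice. Both subunits overlapped between the groups, with differences of 0.14 ± 0.16 and 0.09 ± 0.16 (SE).

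Slc1a1, the carrier of glutamate and aspartate (EAAC1), varied most widely beside Slc36a1. It had 9.33, 8.04, 9.24 and 9.69 in voglibose mice 1 to 4, against 8.44, 10.05, 9.04 and 6.90 in water mice 1 to 4. Water mouse 2, with the highest distal markers, was the highest of the 8, and water mouse 4 and voglibose mouse 2, with the lowest distal markers, were the lowest. The mice between them did not keep this order. Water mouse 3, with a distal mean of 12.46, had 9.04, and voglibose mouse 1, with a distal mean of 10.20, had 9.33. The part of position along the gut in the Slc1a1 signals was not tested. The difference of 0.47 had a 95% interval from -0.77 to 1.71, and leaving out water mouse 4 gave -0.10 and leaving out water mouse 2 gave 0.95. The remaining apical carriers were Slc6a6 for taurine (0.10 ± 0.20, SE), the broad carrier Slc6a14 (0.20 ± 0.20, with means of 4.96 in voglibose and 4.76 in water mice, under the median probe set) and the neutral exchanger Slc1a5 (-0.12 ± 0.15). Slc6a6 was -0.05 without voglibose mouse 2.

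**Figure D2:**
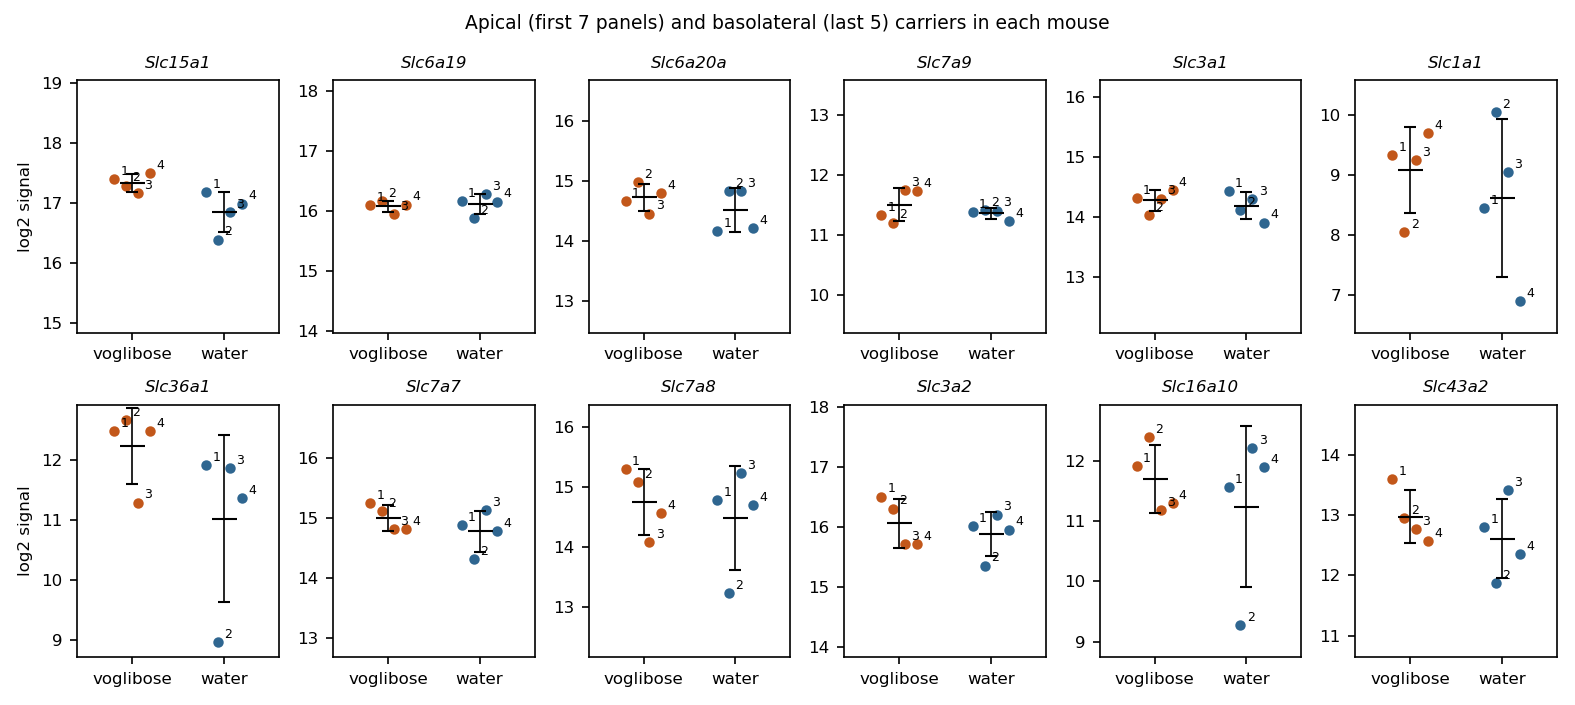
Log2 signal (y axis, same span in every panel) of 7 apical and 5 basolateral carriers, with 1 numbered point per mouse for voglibose (left) and water (right), and bars for the mean and SD of 4 mice. Water mouse 2 lies lowest in Slc15a1, Slc6a19, Slc36a1 and all 5 basolateral carriers shown, and highest in Slc1a1.

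Basolateral carriers were higher in voglibose mice in 6 of 8, with a median difference of 0.20, and 0 of 8 had an unadjusted p under 0.05. This median rested on water mouse 2, without which it was -0.07. Slc7a7, the light chain y+LAT1 that exports cationic amino acids and is mutated in human lysinuric protein intolerance, had 15.25, 15.12, 14.82 and 14.82 in voglibose mice 1 to 4, against 14.88, 14.31, 15.13 and 14.78 in water mice 1 to 4. The groups overlapped, and the difference was 0.23 ± 0.19 (SE), or 0.07 without water mouse 2. Slc3a2, the heavy chain 4F2hc that carries Slc7a7, Slc7a8 and their relatives to the surface, had 16.50, 16.30, 15.71 and 15.71 in voglibose mice, against 16.01, 15.35, 16.20 and 15.95 in water mice. Its difference was 0.18 ± 0.24 (SE), and 0.0017 without water mouse 2.

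The exporters of large neutral and aromatic amino acids spread further. Slc7a8, the exchanger LAT2, had 15.29, 15.08, 14.07 and 14.56 in voglibose mice 1 to 4, against 14.78, 13.23, 15.23 and 14.69 in water mice 1 to 4. Slc16a10, the aromatic amino acid uniporter TAT1, had 11.92, 12.40, 11.19 and 11.30 in voglibose mice, against 11.58, 9.28, 12.22 and 11.91 in water mice. In both genes water mouse 2 was the lowest of the 8, and the other 3 water mice lay within the range of the voglibose mice. The differences were 0.27 ± 0.40 and 0.46 ± 0.55 (SE), and without water mouse 2 they were -0.15 and -0.20. Slc43a2, the uniporter LAT4 of branched-chain amino acids, phenylalanine and methionine, had 13.60, 12.95, 12.78 and 12.58 in voglibose mice, against 12.81, 11.88, 13.42 and 12.35 in water mice. Its difference was 0.36 ± 0.32 (SE), and 0.12 without water mouse 2.

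Slc7a6 (y+LAT2), Slc7a5 (LAT1, a carrier of growing cells) and Slc7a1 (the cationic carrier CAT1) completed the basolateral class. They differed by 0.17 ± 0.22, -0.16 ± 0.18 and -0.19 ± 0.15 (SE), and the groups overlapped in all 3. Slc7a6 was 0.04 without water mouse 2, and Slc7a5 was -0.04 without water mouse 1.

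Set side by side, the apical and the basolateral classes differed little. The apical median minus the basolateral median was -0.03 on the log2 scale. In single mice, the median apical minus the median basolateral deviation from the group mean had an SD of 0.30 within groups. This SD describes single mice and is not the error of the -0.03. With 6 core apical and 5 core basolateral carriers alone the medians were 0.18 and 0.27. Without water mouse 2 they were 0.24 for the apical and -0.07 for the basolateral class, and the order of the classes was the other way. The apical minus basolateral median difference was also above 0 without voglibose mouse 1 (0.105), without voglibose mouse 2 (0.0267) and with array weights (0.0351), so the order of the classes is not settled by these mice. The basolateral carriers of water mouse 2 lay 0.79 below the mean of the 8 mice on average, and its apical carriers 0.19 below. Water mouse 4 was 0.41 below in the apical and 0.06 below in the basolateral class. In the voglibose mice the apical deviations ran from -0.03 to 0.29 and the basolateral ones from -0.11 to 0.34.

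Water mouse 2 alone had the lowest signal in 9 of the 18 apical and basolateral carriers and the highest in 1, and over the whole array it was alone the lowest in 14.7% of probe sets. Water mouse 4 was alone the lowest in 4 of 18, and alone the lowest in 13.9% of all probe sets. The pooled SD within groups was over 0.5 in 6 carriers, Slc36a1 (1.08), Slc1a1 (1.06), Slc16a10 (1.03), Slc7a8 (0.73), Slc36a4 (0.60) and Slc43a2 (0.56), against a median of 0.28 over the 36. The enterocyte markers (16.93), the proximal markers and the T cell markers of water mouse 2 were also the lowest of the 8 mice, and its smooth muscle markers the highest. Their part in its carrier signals was not tested.

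**Figure D3:**
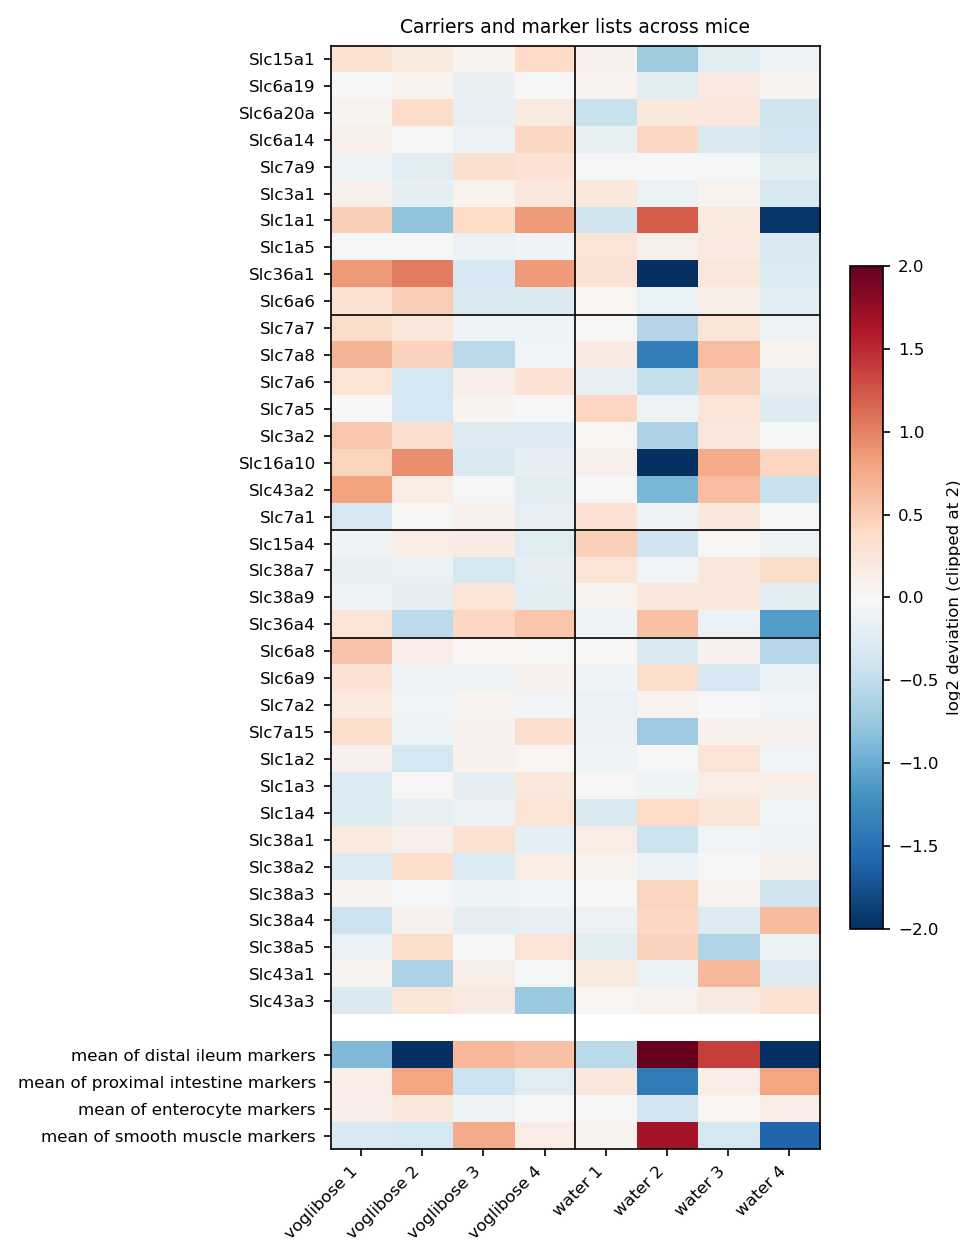
Log2 signal of each carrier minus its mean over the 8 mice (colour, clipped at 2 either way), voglibose mice left and water mice right, with rows in the order apical, basolateral, lysosome and inner membranes, and others. The lowest 4 rows give the mean deviation of marker lists; water mouse 2 is blue in the basolateral rows, red in Slc1a1, and red in the distal ileal and smooth muscle markers.

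Lysosomal carriers held the only carrier of the 36 whose groups did not overlap. Slc38a7 (SNAT7), known to export glutamine and asparagine from lysosomes, had 8.56, 8.57, 8.36 and 8.53 in voglibose mice 1 to 4, against 8.98, 8.65, 8.94 and 9.08 in water mice 1 to 4. The 4 voglibose mice lay under all 4 water mice, the nearest being water mouse 2. The group means were 8.50 ± 0.10 in voglibose mice and 8.91 ± 0.18 in water mice (SD, n = 4 each), and the difference was -0.41 with a 95% interval from -0.72 to -0.09 (0.754-fold; limma adjusted p = 0.652). Leaving out 1 mouse at a time gave differences from -0.50 to -0.35. The mean of 5 macrophage markers also did not overlap, at 7.65 to 7.99 in voglibose mice and 8.19 to 8.33 in water mice. Ccr2 (-0.965) and Cd14 (-0.89) were lower in every voglibose mouse. Mrc1 (-0.42), Adgre1 (-0.185) and Csf1r (-0.05) overlapped between the groups. The part of the macrophage markers in the Slc38a7 difference was not tested.

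Slc38a9, the lysosomal arginine sensor that signals to mTORC1, had 13.19, 13.10, 13.55 and 13.06 in voglibose mice 1 to 4, against 13.36, 13.51, 13.50 and 13.07 in water mice 1 to 4. The groups overlapped, with a difference of -0.13 ± 0.16 (SE). Slc15a4, a carrier of histidine and peptides in endolysosomes of immune cells, had a mean of 6.70 in each group. Slc36a4, a proline and tryptophan carrier of inner membranes, differed by 0.36 ± 0.34 (SE), or by 0.05 without water mouse 4, which had the lowest of its 8 signals at 4.87.

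Among the 14 other carriers, 6 were higher and 8 lower in voglibose mice, with a median difference of -0.04 and no unadjusted p under 0.05. The creatine carrier Slc6a8 had the largest difference of this class. It had 16.39, 15.96, 15.86 and 15.84 in voglibose mice 1 to 4, against 15.84, 15.54, 15.91 and 15.25 in water mice 1 to 4. The lower end of the voglibose mice met the upper end of the water mice, and the difference was 0.38 ± 0.19 (SE; 95% interval -0.04 to 0.79). Slc6a8 stood at an unadjusted p under 0.05 with a trended, robust variance and after a further quantile normalization, with no adjusted p under 0.05. Slc7a15, an aromatic-preferring light chain of the mouse, had 14.59, 14.15, 14.33 and 14.57 in voglibose mice, against 14.12, 13.51, 14.32 and 14.32 in water mice. Its difference was 0.34 ± 0.20 (SE), and 0.16 without water mouse 2.

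The glutamine and neutral amino acid carriers of the Slc38 family had differences of both signs. Slc38a1 differed by 0.21 ± 0.17, Slc38a2, which starved cells induce, by -0.02 ± 0.17, and Slc38a5 by 0.25 ± 0.22 (SE). Slc38a3 and Slc38a4, both known chiefly from liver, differed by -0.06 ± 0.18 and -0.34 ± 0.21. Group means of Slc38a3, Slc38a4 and Slc38a5 lay under the median probe set. The uniporter Slc43a1 (LAT3) differed by -0.24 ± 0.23 and Slc43a3, which is known as a nucleobase carrier and not an amino acid carrier, by -0.30 ± 0.21, or by -0.10 without voglibose mouse 4.

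The glial glutamate carriers Slc1a2 and Slc1a3 were dim. Their means were 4.58 and 3.32 in voglibose mice and 4.64 and 3.42 in water mice, with differences of -0.07 ± 0.16 and -0.10 ± 0.15 (SE). The 4 measured glia markers were dim as well, with list means from 3.84 to 4.18 in voglibose mice and from 3.69 to 4.10 in water mice. Slc7a2, a cationic carrier of liver and activated macrophages, was near the bottom of the scale at 3.03 in voglibose mice and 2.97 in water mice. Slc1a4 and the glycine carrier Slc6a9 differed by -0.14 ± 0.19 and 0.10 ± 0.17 (SE).

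Proteins that hold the carriers at the brush border or feed their ion gradients differed little, in 6 measured genes with a median of 0.09 and none with an unadjusted p under 0.05. Cltrn, a partner of neutral amino acid carriers that is better known in kidney, differed by -0.18 ± 0.17, and Anpep, the brush border peptidase that associates with Slc6a19, by 0.06 ± 0.16 (SE). The sodium-proton exchanger Slc9a3, which sustains peptide uptake with protons, had 14.19, 14.79, 13.69 and 13.60 in voglibose mice 1 to 4, against 14.03, 12.47, 14.19 and 15.11 in water mice 1 to 4. Its lowest value was again that of water mouse 2, and the difference of 0.12 ± 0.47 (SE) became -0.38 without it. The scaffolds Slc9a3r1 and Pdzk1 differed by 0.26 ± 0.15 and -0.10 ± 0.14, and the sodium pump subunit Atp1b1 by 0.20 ± 0.19, or by 0.02 without water mouse 2.

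Of 29 further carriers of the same families, 17 were higher and 10 lower, with a median of 0.04 and none with an unadjusted p under 0.05. The smallest p belonged to Slc6a20b, a close paralog of Slc6a20a (0.31 ± 0.17), the neutral amino acid carrier Slc6a18 (0.26 ± 0.16), Slc6a12 (0.30 ± 0.18) and the lysosomal cystine carrier Ctns (0.18 ± 0.13, SE). Signal shared between the probe sets of these paralogs was not tested. The groups did not overlap in 1 of the 29, Slc6a18, at 5.42 to 5.61 in voglibose mice and 4.87 to 5.41 in water mice. Over all probe sets 4.35% did not overlap. Slc6a18 and Slc6a12 were dim, with group means under the median probe set at 5.91. Of 9 mitochondrial amino acid carriers 6 were higher and 3 lower (median 0.12). Those with the smallest p were Slc25a2 (0.29 ± 0.15), Slc25a29 (0.17 ± 0.14), Slc25a18 (0.15 ± 0.14) and the ornithine carrier Slc25a15 (0.18 ± 0.18, SE). Slc25a2, Slc25a29 and Slc25a18 were dim as well, with group means under the median probe set.

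Genes of the ATF4 response, which cells switch on when amino acids are short and which includes several carriers, were lower in voglibose mice in 17 of 22 and higher in 4. The median difference was -0.22, against -0.005 over all probe sets and -0.04 over those above the median signal. An unadjusted p under 0.05 was reached by 2 of 22, both lower, where 4.44% of all probe sets were called lower and 48.7% of all had a higher mean in voglibose mice. Eif4ebp1, the inhibitor of cap-dependent translation, had 7.80, 7.99, 8.53 and 7.95 in voglibose mice 1 to 4, against 8.70, 8.89, 8.46 and 8.27 in water mice 1 to 4, a difference of -0.51 ± 0.20 (SE). Cth, the last enzyme of cysteine synthesis from methionine, had 11.34, 12.22, 12.28 and 12.64 in voglibose mice, against 12.60, 13.35, 13.07 and 12.33 in water mice. Its difference was -0.72 ± 0.29 (SE), and -0.46 without voglibose mouse 1, whose value was the lowest. Both genes overlapped between the groups and had a limma adjusted p of 0.658. Asparagine synthetase Asns (-0.47 ± 0.22) and the mitochondrial folate enzyme Mthfd2 (-0.41 ± 0.20) followed. Mthfd2 was -0.23 without water mouse 1.

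The machinery by which amino acids control mTORC1 at the lysosome was lower in 25 of 31 genes and higher in 6, with a median of -0.09. Over all probe sets 48.7% were higher and the median was -0.005. Among those above the median signal 42.6% were higher and the median was -0.04. In this list 3 genes had an unadjusted p under 0.05 (limma), all lower, beside 4.44% of all probe sets. In these 3 the voglibose and water mice did not overlap, as in 4.35% of all probe sets. Lamtor5, a subunit of the Ragulator scaffold, had 11.98, 12.08, 12.41 and 12.30 in voglibose mice 1 to 4, against 12.79, 12.82, 12.77 and 12.87 in water mice 1 to 4, a difference of -0.62 ± 0.14 (SE; limma adjusted p = 0.652). The water mice lay close together, and every voglibose mouse was below them. Rheb, the GTPase that activates mTORC1, had 12.94, 13.05, 13.30 and 13.34 in voglibose mice, against 13.58, 13.62, 13.57 and 13.63 in water mice (-0.44 ± 0.14). The arginine sensor Castor1 (-0.42 ± 0.14) was dim, at 3.42 to 3.71 in voglibose mice and 3.82 to 4.09 in water mice, and Fnip2, a partner of folliculin, differed by -0.45 ± 0.21, or by -0.26 without voglibose mouse 1. The mean of the macrophage markers was lower in the voglibose mice as well, mainly through Ccr2 and Cd14. The part of these markers in these lists was not tested.

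**Figure D4:**
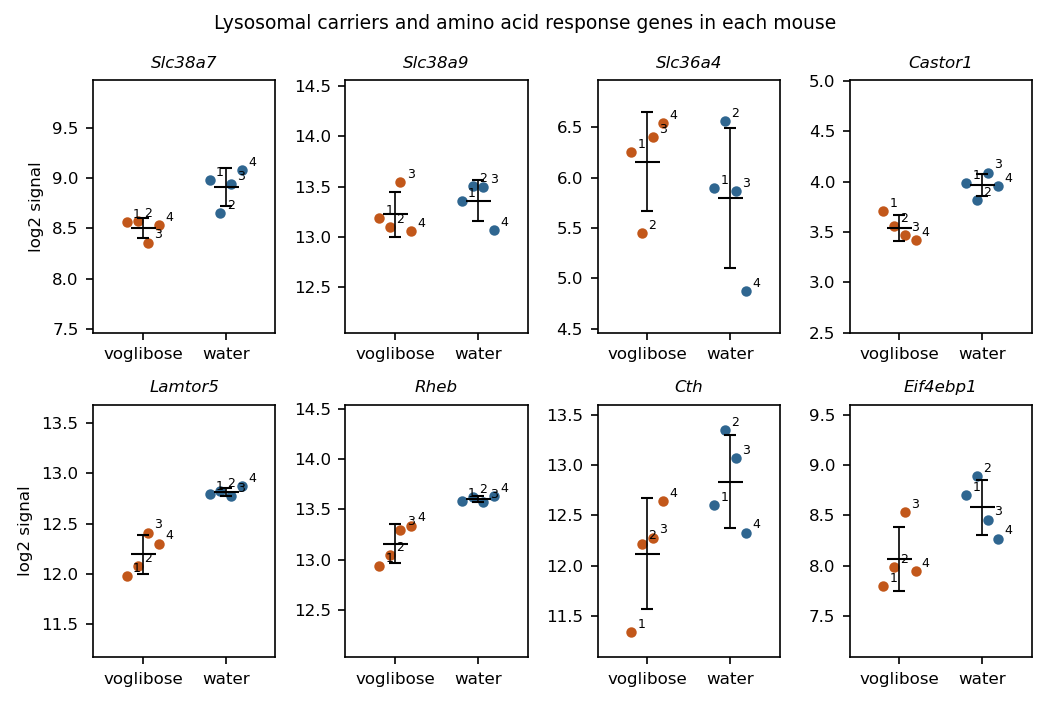
Log2 signal (y axis, same span in every panel) of 3 carriers of lysosomes and inner membranes and 5 genes of amino acid sensing and the ATF4 response, with numbered points for the mice of the voglibose (left) and water (right) groups and bars for mean and SD of 4 mice. The groups are apart in Slc38a7, Castor1, Lamtor5 and Rheb, and overlap in Slc38a9, Slc36a4, Cth and Eif4ebp1.

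**Figure D5:**
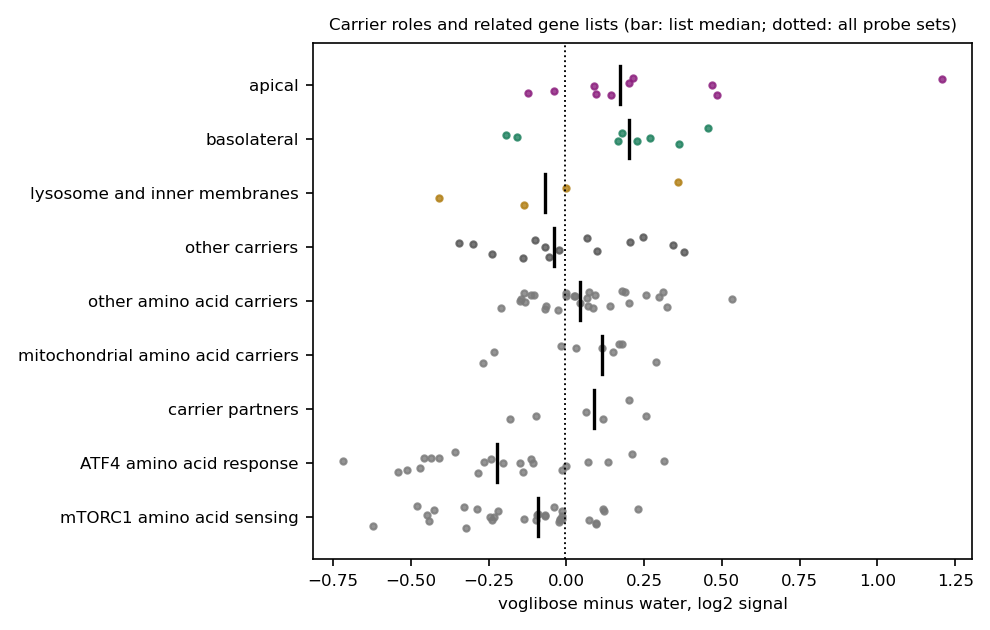
Difference of each gene (points; voglibose minus water, log2 signal, x axis) in the 4 carrier classes and 5 related lists, with a bar at each list's median and a dotted line at the median of all probe sets (-0.005). The apical and basolateral medians stand at 0.17 and 0.20, and those of the ATF4 and mTORC1 lists at -0.22 and -0.09; vertical scatter within a row has no meaning.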

How the data were processed

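Ileal RNA of 8 mice (4 voglibose, 4 water) was measured on 1 Affymetrix array each, from 250 ng of total RNA, per the labels' protocols. The authors deposited log2 signals, which the submitters' processing notes link to RMA and the Transcriptome Analysis Console; RMA corrects the background, brings the arrays to 1 distribution and summarizes probes, so differences of dim probe sets are compressed. The genome build of the array annotation is not given in the sources used here. No further normalization was applied. Groups came from the sample titles and source names. All 22206 probe sets were fitted with limma 3.58.1 in R 4.3.3 (voglibose minus water, moderated variance, Benjamini-Hochberg adjustment over all probe sets), after a check on simulated data. Genes were named through the platform annotation, with the brightest probe set where a gene had several. Every carrier was accounted for. Values per mouse were given for carriers with an unadjusted p under 0.05 or with groups that did not overlap and for the core apical and basolateral carriers, and in each other list up to 4 genes with the smallest p and every carrier partner were named. Slc36a1, Slc38a9, Slc6a8, Slc7a15, Fabp6, Ccr2 and Cd14 were given in detail after their values were seen. The members and lists were chosen with earlier results of these data known. The alternatives were a further quantile normalization, median centring, array weights, a filter on dim probe sets, other variance settings, a replicate block and leaving out mice. Figures were drawn with matplotlib 3.10.9.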

Additional observations from a re-analysis of the deposited data

Results flagged for a closer look

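In 156 groups of 4 mice, covering named genes and the means of marker lists, 10 held a mouse far from the other 3 of its group, by Dixon's ratio of gap to range; at its 95% critical value chance alone flags some such groups. Among the carriers, Slc36a1 was 11.29 in voglibose mouse 3, with 12.48 to 12.67 in the other voglibose mice. Slc1a2 was 4.25 in voglibose mouse 2, with 4.65 to 4.70 in the other voglibose mice. Slc7a9 was 11.23 in water mouse 4, with 11.39 to 11.42 in the other water mice. Among related genes, Ctns was 11.09 in voglibose mouse 3 (others 11.25 to 11.26), Slc6a18 was 4.87 in water mouse 3 (others 5.36 to 5.41) and Atp1b1 was 16.16 in water mouse 2 (others 16.83 to 16.95). Among marker means, the pancreas list was 9.78 in voglibose mouse 2 (others 4.58 to 4.76), the T cell list 6.72 in water mouse 2 (others 8.32 to 8.57), the tuft cell list 5.22 in water mouse 2 (others 4.72 to 4.78) and the macrophage list 8.19 in water mouse 1 (others 8.33 to 8.33).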

How the results depend on the processing

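No carrier had an adjusted p under 0.05 under any alternative run. The count of carriers at an unadjusted p under 0.05 was 2, was 3 with a trended, robust variance and 4 after a further quantile normalization, both with Slc6a8 among them, and lay between 1 (voglibose mouse 4 left out) and 6 (water mouse 3 left out) over all 8 removals of 1 mouse. The apical median of 0.17 kept its sign, from 0.07 to 0.24 with 1 mouse left out. The basolateral median of 0.20 ran from -0.0742 (without water mouse 2) to 0.35, and was -0.11 without both water mouse 2 and voglibose mouse 2, an alternative chosen after seeing the data. The apical minus basolateral median difference of -0.03 was 0.0351 with array weights, ran from -0.19 to 0.32 with 1 mouse left out, and was 0.35 without water mouse 2 and voglibose mouse 2. A further quantile normalization turned Slc6a19 to 0.0247 and Slc38a2 to 0.025. With 1 mouse left out, sign changes were seen in Slc6a19 (-0.12 to 0.0125), Slc3a1 (-0.0067 to 0.17), Slc1a1 (-0.10 to 0.95), Slc6a6 (-0.0517 to 0.21), Slc7a8 (-0.15 to 0.52), Slc16a10 (-0.20 to 0.78), Slc1a2 (-0.11 to 0.0408), Slc38a2 (-0.14 to 0.0658), Slc38a3 (-0.20 to 0.085), Anpep (-0.0317 to 0.16) and Slc9a3 (-0.38 to 0.50). Without water mouse 4 and voglibose mouse 2, Slc6a6 was -0.11, Slc1a2 0.0133, Anpep -0.0467 and Pdzk1 0.01. Without water mouse 2 and voglibose mouse 2, Slc6a6 was -0.08, Slc7a8 -0.26, Slc3a2 -0.08, Slc16a10 -0.43, Slc1a2 0.0333, Slc1a4 0.0033, Slc38a3 0.09, Slc25a15 -0.0033, Slc9a3 -0.62 and Atp1b1 -0.0267. The cause of these changes was not tested beyond the removal of the mice named. With the replicate number as a block, 2 carriers had an unadjusted p under 0.05 (limma) and 0 an adjusted one. Each number has 1 mouse of each group, so this block cannot change a difference or the medians of 0.17 and 0.20. It can change only their errors. Deviations of same-numbered mice correlated at -0.32 to 0.01, so no pairing by number was seen. Large differences between mice could hide a smaller shared effect, so this check cannot exclude pairing. Averaging probe sets per gene gives no other value, since each carrier has 1, and the filter on dim probe sets gives none for 8 dim carriers. Dim probe sets and 4 mice per group limit what can be detected.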
